A study of Bos taurus with 20 samples.

Results

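Annexins are proteins that bind acidic phospholipids of membranes when calcium rises inside the cell, through a core of repeats that carry the calcium-binding loops. They take part in vesicle traffic, membrane repair, clotting and fibrinolysis at the cell surface, and the control of inflammation, and members of the family are widely used as markers of extracellular vesicles. In the ovary they are known from the steroid-producing follicle wall as well as from the cells around the oocyte. The mRNA of 9 annexin genes was described here in the cells of the bovine antral follicle, namely ANXA1, ANXA2, ANXA3, ANXA4, ANXA5, ANXA6, ANXA7, ANXA8, and ANXA11. They were chosen by name, as the genes whose symbol on the array matched these members, and not by a rule on their values, though earlier results of these data were known. They made up 9 of the 22550 genes or transcripts measured, with 30 of the 61325 spots and 18 of the 50909 different probe sequences.

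Gene expression was measured on 20 bovine arrays to ask which cells of the follicle express a gene. There were 4 arrays each of the theca (TH), of granulosa (GC) and cumulus (CC) cells, of oocytes, and of CC that had spent 4 h in maturation culture (IVM). The cells came from 3 to 6 mm follicles of ovaries collected after slaughter, and the breed and age of the animals are not given in the sources used here. TH were scraped from the follicle wall, so they held a tissue layer and not a purified cell type, GC were recovered from the punctured follicle, and CC and oocytes were parted from cumulus-oocyte complexes. Except for CC after IVM, all groups were labelled immature, and no treatment other than the IVM was named. Each array was hybridized in 1 colour with Cy3-labelled cRNA from 200 ng of total RNA. The arrays of a group are called biological replicates in the methods, but the labels do not tie them to separate animals or cultures, so a p-value measures the spread between these samples, part of which may be technical.

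A level is given here as log2 intensity relative to the 75th percentile of the same array, so 0 means as bright as that percentile and each unit is a doubling. Differences between groups were tested with limma over all 22550 genes, a gene was called when its Benjamini-Hochberg adjusted p was under 0.05, and levels are compared between groups for 1 gene at a time and never between genes, because probes differ in brightness. Between 49.3% and 68.8% of probes were well above background, the lowest share being that of oocyte replicate 2, on which ANXA1 and ANXA8 were read against a higher floor than on the other oocyte arrays. Replicates 1 and 2 of TH, GC, CC, and oocytes shared slide 1 and replicates 3 and 4 shared slide 2, while the 4 arrays of CC after IVM were alone on slide 3. The means of the marker lists followed the labels. The mean of 5 theca markers, among them the androgen-making enzyme CYP17A1 and the hormone INSL3, was 5.56 to 5.90 on the TH arrays. In GC it was 0.42 to 2.44, with replicates 2 and 3 the higher pair, and in CC -1.18 to -0.19. The mean of 6 oocyte markers was 5.14 to 5.53 in oocytes and at most -1.38 elsewhere. The mean of 4 granulosa and cumulus markers was 2.70 to 4.46 in GC and 3.99 to 4.40 in CC, against -0.89 to 0.36 in TH. Single markers were not confined to their cells. INSL3 had means of 5.29 in GC and 4.54 in CC, and AMH and INHBA had means of 2.83 and 4.09 in TH. All 6 oocyte markers were above background on at least 3 CC arrays.

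A gene was taken as above background on an array where at least 1 of its spots was, while its level is the median of its spots. A level can thus lie below the lowest signal of any probe above background, as for ANXA1 in oocyte replicate 3 (-7.56 against -6.84). Every annexin passed the filter on dim signals, with 3 or more arrays of some group above background, and 7 of the 9 were above background on all 20 arrays. The exceptions were ANXA1, above background on 1 of 4 oocyte arrays, and ANXA8, above background on 2 of 4 GC arrays and 0 of 4 oocyte arrays. Each gene was read by 2 probe sequences of 60 bases. In the build of the files (UMD 3.1), ANXA1 lay at chr8:49624473-49642916, ANXA2 at chr10:49860062-49904536, ANXA4 at chr11:68070487-68144492, and ANXA6 at chr7:64359563-64406299. ANXA3 and ANXA5 were both on chromosome 6, and ANXA7, ANXA8, and ANXA11 on chromosome 28. The probes named ANXA8 carry a transcript accession that RefSeq lists as ANXA8L1, so their gene is uncertain.

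A family feature could be read in the probes themselves. The letters GGNNNNGGNACN, which spell the glycine-rich turn at the start of the calcium-binding loop of an annexin repeat, were searched on both strands, in full or where the end of the probe broke them off after the first 10 letters. They were found in 2 of the 18 annexin sequences, both in the printed direction, against 0.898% of all 50909 sequences in that direction and 2.03% on either strand. The 2 sequences are shown with the matched letters in capitals because they carry letters that spell a feature of the protein family, which the other 16 annexin sequences do not hold in full or at their end, and a match is a description of the letters only. The sequence of ANXA1 carries the match at bases 15 to 26 and that of ANXA6 at bases 51 to 60.
ANXA1: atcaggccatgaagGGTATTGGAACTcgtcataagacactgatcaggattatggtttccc
ANXA6: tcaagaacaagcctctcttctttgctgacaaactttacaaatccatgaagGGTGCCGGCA

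The annexins split into 3 kinds of pattern. ANXA1, ANXA2, ANXA4, ANXA5, ANXA6, and ANXA8 were lowest in the oocyte, ANXA7 and ANXA11 were highest there, and ANXA3 had an oocyte level between those of TH and CC. The mean was highest in TH for 5 genes (ANXA1, ANXA2, ANXA3, ANXA5, and ANXA6), in CC for ANXA4 and ANXA8, and in the oocyte for ANXA7 and ANXA11. All 9 differed over the 4 cell types by the F-test of limma, with adjusted p-values from 3.09e-12 (ANXA4) to 0.00187 (ANXA11), where 71.3% of all genes were called. The 6 pairs of cell types share their arrays, so their differences are not independent of each other.

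**Figure D1:**
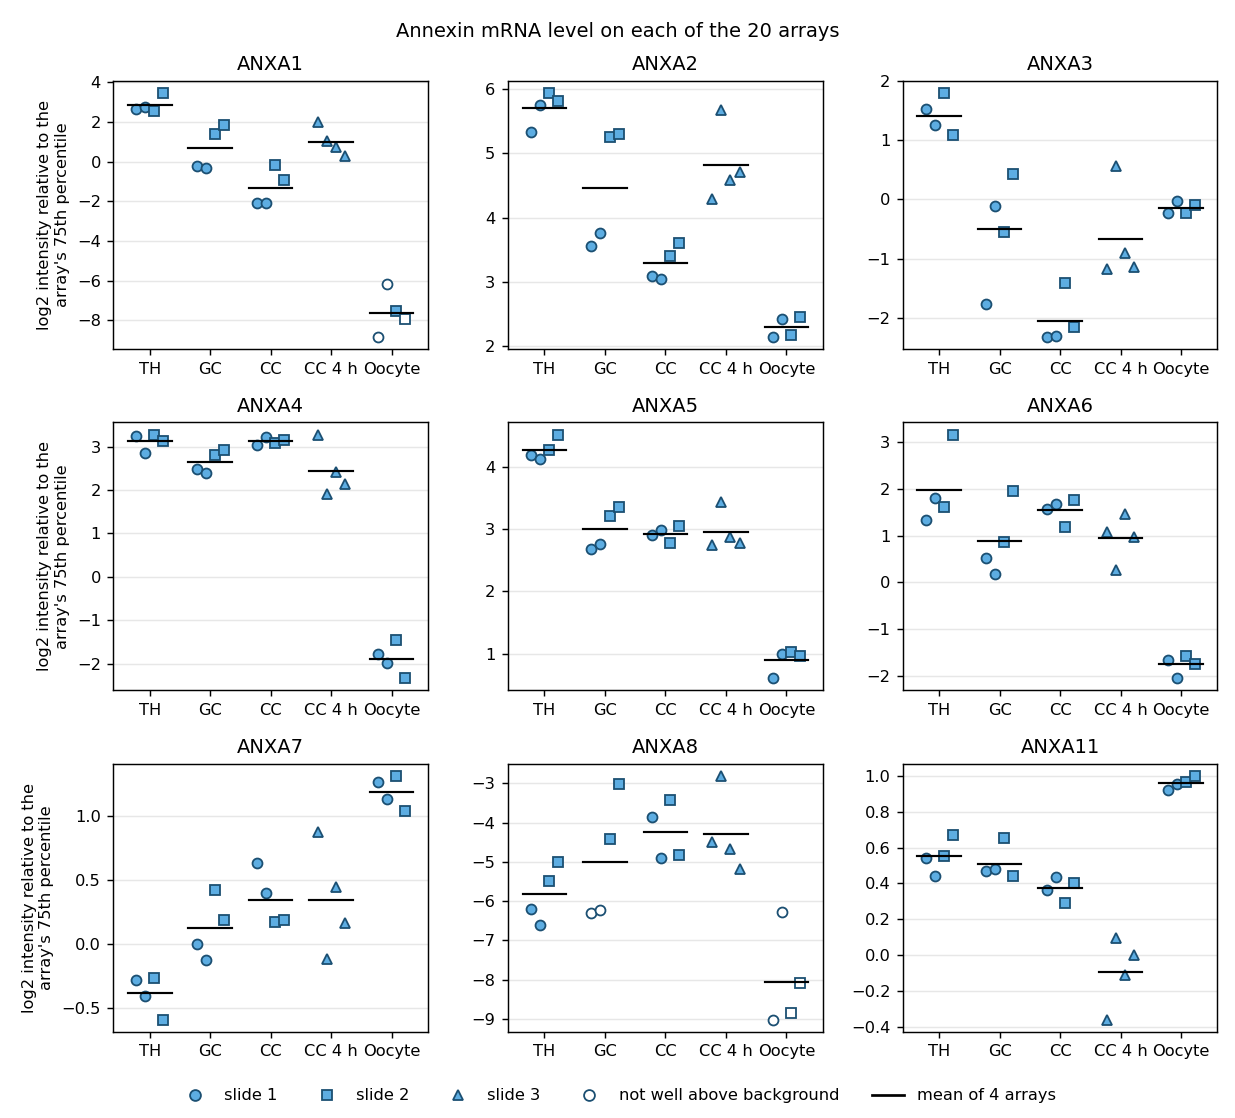
Level of each annexin (vertical axis, log2 intensity relative to the 75th percentile of the array) on each of the 20 arrays, by group, where CC 4 h stands for CC after IVM. Symbols mark the slide, open symbols mark arrays on which no spot of the gene was well above background, and lines mark the mean of 4 arrays. ANXA1 falls from a mean of 2.86 in TH to -7.64 in oocytes, whereas ANXA7 and ANXA11 have all 4 oocyte arrays above every other array.

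ANXA1, a glucocorticoid-regulated inhibitor of inflammation that acts through formyl peptide receptors and restrains phospholipase A2, had the widest range of the family. It stood at 2.65, 2.78, 2.57, and 3.45 in TH replicates 1 to 4, at -0.22, -0.34, 1.38, and 1.85 in GC, and at -2.09, -2.10, -0.17, and -0.92 in CC. The TH arrays were all above the GC arrays, and GC and CC overlapped, since CC replicate 3 reached the level of GC replicates 1 and 2. The difference of TH from GC was 2.19 ± 0.61 (SE, n = 4 each, limma adjusted p = 0.0136), a 4.58-fold level, and that of TH from CC was 4.18 ± 0.61 (limma adjusted p = 5.91e-05), an 18.1-fold level. In GC the level was 1.99 ± 0.61 above CC without passing the threshold (limma adjusted p = 0.0524). This difference passed in 16 of 31 alternatives, among them the fit with the slide as a block (adjusted p = 0.0295), and within each slide both GC arrays lay above both CC arrays. In these bulk samples, fewer cells that express a gene and less RNA of it in each cell cannot be told apart.

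In oocytes ANXA1 was well above background on replicate 3 only, through its second sequence. The oocyte values were -8.84, -6.19, -7.56, and -7.97, below every somatic array. These values only bound the level. Each oocyte array was therefore given the lowest signal that any of its probes had well above background, or the measured value where that was higher. The somatic mean was set against the mean of these floors. ANXA1 was at least 435-fold higher in TH, at least 95.0-fold higher in GC, and at least 24.0-fold higher in CC than in the oocyte. The measured differences had limma adjusted p-values of 3.51e-10, 6.15e-09, and 1.51e-07, which do not test these bounds. Without oocyte replicate 2, which had the highest floor, the bounds were 671-fold, 147-fold, and 37.0-fold.

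ANXA2, which pairs with S100A10 and gathers plasminogen and its activator on the cell surface, was bright on every array. Its levels were 5.33, 5.75, 5.94, and 5.82 in TH, 3.56, 3.76, 5.25, and 5.31 in GC, 3.09, 3.05, 3.41, and 3.61 in CC, and 2.15, 2.43, 2.17, and 2.45 in oocytes. The order of the means was TH, GC, CC, and oocyte, the TH arrays lay above all arrays of these 3 other cell types, the oocyte arrays lay below all others, and GC replicate 1 lay within the range of CC. Each step of this order passed the test, with TH above GC by 1.24 ± 0.34 (limma adjusted p = 0.0136), GC above CC by 1.18 ± 0.34 (limma adjusted p = 0.0413), and the oocyte below CC by 0.99, as -0.99 ± 0.34 (limma adjusted p = 0.0196). The GC and CC call was lost in 14 of 31 alternatives, among them those without GC replicate 3 (0.92) or 4 (0.90) and without CC replicate 1 (1.11), and the oocyte and CC call was lost without CC replicate 4 (-0.88, adjusted p = 0.0565) and with the deposited table (-0.49, adjusted p = 0.174). Unlike ANXA1, the gene was 2.30 ± 0.16 (SD, n = 4) in the oocyte, where all 4 arrays were well above background.

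ANXA3, a phospholipid-binding inhibitor of phospholipase A2, was the member with the largest contrast between TH and CC after ANXA1. It stood at 1.52, 1.26, 1.80, and 1.09 in TH, at -1.76, -0.11, -0.55, and 0.43 in GC, at -2.32, -2.30, -1.41, and -2.17 in CC, and at -0.22, -0.02, -0.23, and -0.09 in oocytes. TH lay above all other groups, CC lay below TH and the oocyte on every array, and the oocyte arrays fell inside the wide range of GC. TH exceeded GC by 1.92 ± 0.36 and CC by 3.47 ± 0.36 (limma adjusted p = 0.000877 and 2.00e-06), and GC exceeded CC by 1.55 ± 0.36 (limma adjusted p = 0.0120). The oocyte was 1.91 ± 0.36 above its surrounding CC (limma adjusted p = 0.000217), 1.56 below TH (-1.56 ± 0.36, limma adjusted p = 0.00125), and 0.36 ± 0.36 from GC (limma adjusted p = 0.370). It was the 1 member not called between the oocyte and the mean of the 3 somatic cell types, at 0.24 ± 0.29 (limma adjusted p = 0.461).

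ANXA5, the phosphatidylserine-binding annexin used to stain dying cells, set TH apart from the other somatic cells with little spread between arrays. Its levels were 4.20, 4.12, 4.27, and 4.52 in TH, 2.68, 2.76, 3.20, and 3.35 in GC, 2.90, 2.98, 2.78, and 3.05 in CC, and 0.61, 1.00, 1.03, and 0.96 in oocytes. GC and CC covered the same range, with TH above and the oocyte below it on every array. TH exceeded GC by 1.27 ± 0.17 (limma adjusted p = 5.25e-05) and CC by 1.35 ± 0.17 (limma adjusted p = 1.91e-05), while GC and CC were 0.08 ± 0.17 apart (limma adjusted p = 0.834). The oocyte lay below TH by 3.38 on the log2 scale, as -3.38 ± 0.17 (limma adjusted p = 9.79e-11).

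ANXA4, an annexin of secretory epithelia that aggregates membranes, had similar levels in the somatic cells and was low in the oocyte. It stood at 3.25, 2.86, 3.26, and 3.12 in TH, at 2.48, 2.40, 2.82, and 2.91 in GC, at 3.05, 3.22, 3.07, and 3.16 in CC, and at -1.77, -1.98, -1.46, and -2.33 in oocytes. TH and CC overlapped and had the same mean of 3.12, GC lay just below CC on every array, and the oocyte stood far from all of them. None of the somatic pairs was called, and GC differed from TH by 0.47 ± 0.19 (TH higher, limma adjusted p = 0.0848). This difference passed in 5 of 31 alternatives, among them quantile normalization (0.53, limma adjusted p = 0.0233). That of GC from CC passed in 1, the deposited table (-0.68, limma adjusted p = 0.0313). The oocyte was below CC by 5.01, as -5.01 ± 0.19 (limma adjusted p = 2.94e-12), a 32.2-fold lower level in the cell that the CC surround.

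ANXA6, the largest annexin, which binds the Ras inhibitor RASA1, ranged over 1.34 to 3.17 in TH, 0.18 to 1.95 in GC, 1.18 to 1.76 in CC, and -2.05 to -1.57 in oocytes. The somatic groups overlapped and the oocyte was apart from them, below CC by 3.30 (-3.30 ± 0.39, limma adjusted p = 1.50e-06). TH exceeded GC by 1.10 ± 0.39 at the edge of the threshold (limma adjusted p = 0.0487), a call that 18 of 31 alternatives lost, and by 0.70 without TH replicate 4 (adjusted p = 0.145). That call came from the sequence printed above, on which TH was 1.68 higher (per-spot limma adjusted p = 0.0421, where 23.8% of all spots were called), while on the other sequence of ANXA6, which shares 6 bases in 1 run with it, TH was 0.51 higher (adjusted p = 0.224). Both sequences placed the oocyte lowest, with differences from TH of -3.78 and -3.68. The printed sequence was the dimmer, with the other 4.71 to 8.05 higher over the 20 arrays. Gene levels of ANXA6 thus lie between those of its 2 sequences. The printed one was above background on 3 of 4 oocyte arrays.

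ANXA8, a vascular anticoagulant annexin, was dim in all cells, with ranges of -6.61 to -4.99 in TH, -6.31 to -3.02 in GC, -4.90 to -3.43 in CC, and -9.02 to -6.28 in oocytes. CC lay above TH on every array, but no pair of somatic cell types was called. CC was at least 3.14-fold higher than the oocyte (limma adjusted p = 0.000250 for the measured difference, not the bound), whereas the same calculation gave only 1.06-fold for TH. On TH replicates 1 and 2 the levels (-6.20 and -6.61) were below the lowest signal of any probe above background (-5.33 and -5.45), so the TH value is no true bound. Without oocyte replicate 2 the values for CC and TH were 4.85-fold and 1.63-fold. Its 2 sequences differed, since the first was not well above background on any TH or oocyte array and was not called between them on either spot. The second was above background on all 4 TH arrays and 0 of 4 oocyte arrays, and both of its spots were called lower in the oocyte. In CC the first sequence had a mean of -6.08 and was above background on 2 of 4 arrays, and the second had a mean of -2.65. The first alone lay below the mean oocyte floor of -5.90 and gave no bound, so the bound for CC holds for the gene level only.

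ANXA7 (synexin), which binds sorcin and promotes membrane fusion in secretion, ran the other way. Its levels were -0.28, -0.41, -0.27, and -0.59 in TH, 0.00, -0.13, 0.42, and 0.18 in GC, 0.63, 0.40, 0.17, and 0.19 in CC, and 1.27, 1.14, 1.32, and 1.04 in oocytes. TH lay below all other groups, GC and CC overlapped, and the oocyte arrays lay above every somatic array. The oocyte exceeded TH by 1.58 ± 0.16, GC by 1.07 ± 0.16, and CC by 0.84 ± 0.16 (limma adjusted p = 2.95e-07, 2.35e-05, and 0.000243). Among the somatic cells, TH was below GC by 0.51 (-0.51 ± 0.16, limma adjusted p = 0.0290, lost without TH replicate 2 or 4 or GC replicate 3 or 4) and below CC by 0.73 (-0.73 ± 0.16, limma adjusted p = 0.00220). The median difference of all genes between TH and GC was -0.22, and relative to it ANXA7 stood at -0.28.

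ANXA11, which binds the calcium sensor PDCD6 and is needed for the last step of cell division, had the smallest spread of the family. It stood at 0.54, 0.44, 0.56, and 0.67 in TH, at 0.47, 0.48, 0.65, and 0.44 in GC, at 0.36, 0.43, 0.29, and 0.40 in CC, and at 0.92, 0.95, 0.97, and 1.00 in oocytes. The oocyte arrays were above all the others and no somatic pair was called. The oocyte exceeded the somatic mean by 0.48 ± 0.10 (limma adjusted p = 0.000317), a 1.40-fold level. On the same scale the median difference of all genes between the oocyte and the somatic mean was -0.52, so ANXA11 stood 1.00 and ANXA7 1.68 above that median. When the scaling used only probes detected on all arrays, the excess of ANXA11 in the oocyte shrank to 0.08 over TH and 0.25 over GC (limma adjusted p = 0.528 and 0.0726). With the brightest probe in place of the median it was 0.24 and 0.27, also not called, and its second sequence was called against TH on 0 of 3 spots.

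**Figure D2:**
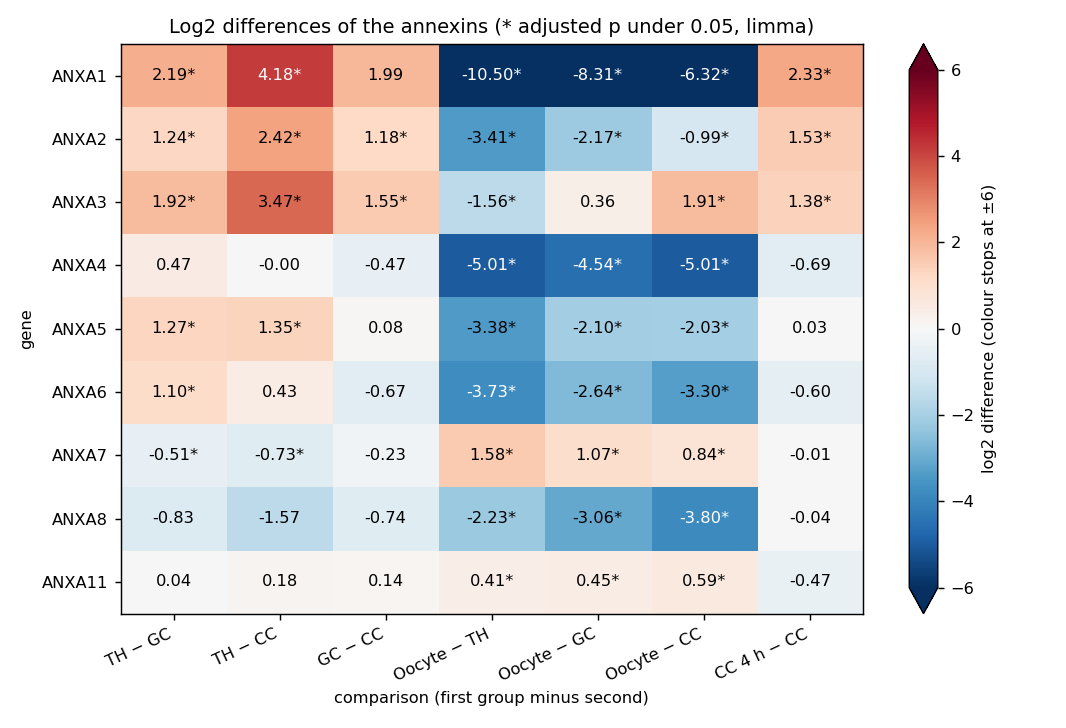
Log2 difference between groups (colour and printed value) for each annexin (rows) in the 6 pairs of cell types and in CC after IVM against CC (columns). An asterisk marks an adjusted p under 0.05 in limma, and the colour scale ends at 6. The 3 oocyte columns are blue for ANXA1, ANXA2, ANXA4, ANXA5, ANXA6, and ANXA8 and red for ANXA7 and ANXA11, and ANXA3 is blue against TH and red against CC. Oocyte differences of ANXA1 and ANXA8 are drawn as measured although most of their oocyte values were not above background.

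Between TH and GC, 6 of the 9 annexins were called, where 26.3% of all genes were. ANXA1, ANXA2, ANXA3, ANXA5, and ANXA6 were higher in TH (11.8% of all genes) and ANXA7 was lower (14.5%). The median difference of the 9 was 1.10, against -0.22 over all genes. Between TH and CC, 5 annexins were called (31.8% of all genes), with ANXA1, ANXA2, ANXA3, and ANXA5 higher in TH (14.4%) and ANXA7 lower (17.4%), and the median difference was 0.43. Between GC and CC, 2 were called (9.88% of all genes), ANXA2 and ANXA3, both higher in GC (4.61% of all genes, with 5.27% lower).

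Markers of other cells of the follicle wall had higher list means in TH than in GC and CC. All 6 leukocyte and blood markers were above background on at least 3 TH arrays, with a list mean of -2.45 to -1.47 there, while the mean was -4.79 to -3.64 on GC arrays and -5.70 to -4.41 on CC arrays, and PTPRC, the pan-leukocyte antigen, was above background on all TH arrays and on no other array. The 4 endothelial markers had a mean of -2.05 to -0.88 in TH, -5.85 to -4.50 in GC, and -6.34 to -5.90 in CC. Of these, CDH5 was above background on 1 of 4 TH arrays. In oocytes the leukocyte and blood list had a mean of -4.30 to -3.38 and the endothelial list one of -4.12 to -3.16. CSF1R, CD3E, and TEK were higher there than in TH (means 3.70, -0.07, and 1.33 against 1.60, -1.04, and 0.46), so not every listed gene was particular to TH. The part of leukocytes, blood, and endothelium in the higher TH levels of ANXA1, ANXA2, ANXA3, and ANXA5 was not tested. Over the 20 arrays, the gene most like ANXA1 was LUM, a collagen-binding proteoglycan of connective tissue (Pearson r = 0.98), followed by C1QB, a complement subunit made by macrophages (r = 0.98). Those most like ANXA3 were NEXN and CAPG, both actin-binding (r = 0.94 each), and those most like ANXA5 were HCFC1R1 (r = 0.99) and LASP1 (r = 0.98). These r values compare 13038 genes over arrays of 5 groups, so they mostly follow differences between groups and carry no test.

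The slide moved with some of these levels. GC replicates 3 and 4, on slide 2, were above replicates 1 and 2, on slide 1, in ANXA1 (means 1.61 and -0.28) and ANXA2 (5.28 and 3.66), and CC followed in ANXA1 (-0.54 and -2.10), whereas the TH means of the slides lay closer together, at 3.01 and 2.71 in ANXA1 and 5.88 and 5.54 in ANXA2. The theca list had GC means of 0.42 and 2.44 on slide 1 and 2.16 and 0.49 on slide 2. The part of theca cells in the GC levels was not tested. Within slide 1 the excess of TH over GC was 2.99 for ANXA1 and 1.88 for ANXA2, and within slide 2 it was 1.40 and 0.60. Only for ANXA5, at 1.44 and 1.11, did the difference of TH and GC pass within both slides (limma adjusted p = 0.0183 and 0.0212), with 2 arrays against 2 in each. All 9 annexins kept the sign of their TH and GC difference in both slides, 7 that of TH and CC, and 6 that of GC and CC.

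**Figure D3:**
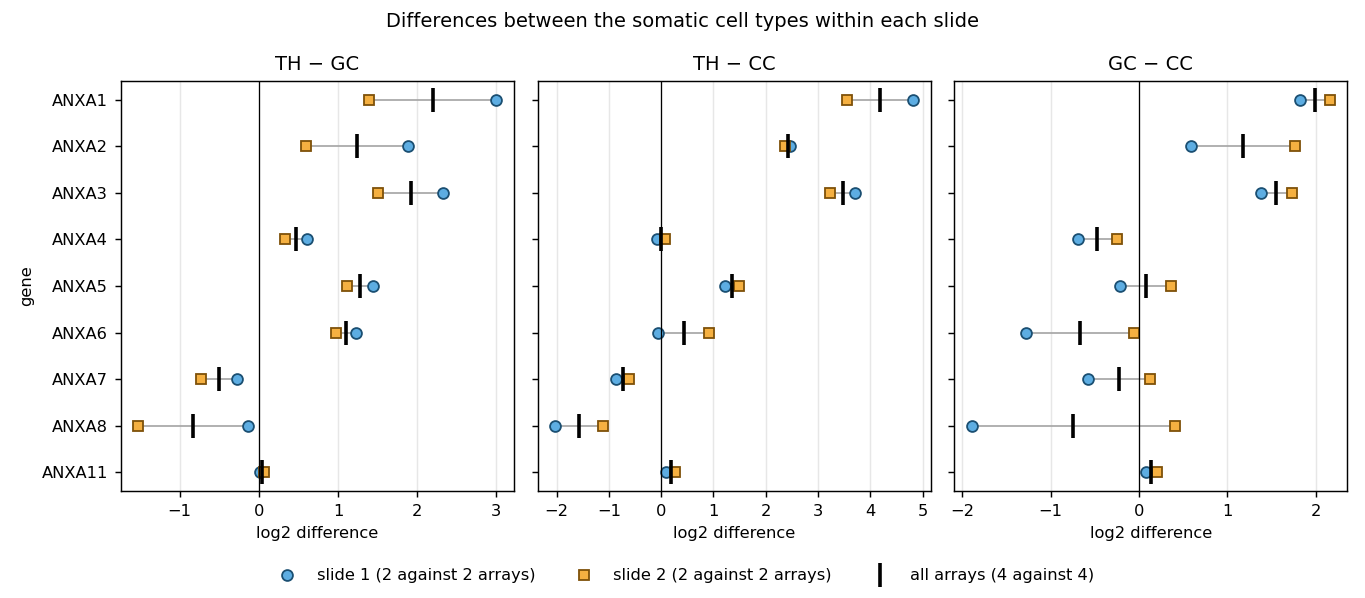
Log2 difference of each annexin (rows) between TH and GC, TH and CC, and GC and CC (panels, horizontal axis), computed within slide 1 (circles), within slide 2 (squares), and over all arrays (bars). The TH and CC differences of ANXA2 nearly coincide, at 2.47 and 2.37, while the TH and GC difference of ANXA1 runs from 1.40 to 2.99 and the GC and CC difference of ANXA8 changes sign.

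Against the oocyte, 9 of 9 annexins were called in the comparison with TH (64.6% of all genes, 32.5% higher and 32.1% lower in the oocyte), 8 in that with GC (68.6%, 30.7% higher and 37.9% lower), and 9 in that with CC (63.7%, 31.8% higher and 32% lower). In each of them ANXA1, ANXA2, ANXA4, ANXA5, ANXA6, and ANXA8 were called lower in the oocyte and ANXA7 and ANXA11 higher. ANXA3 was lower than in TH, higher than in CC, and not called against GC. The ANXA8 calls rest on oocyte values not above background. Its oocyte arrays overlapped those of TH and GC, and the 1.06-fold given for its excess in TH used TH levels near background. No bound was given for it against GC, where 2 of 4 arrays were above background. Taking the 3 somatic cell types together, 8 were called (71.3% of all genes), 2 higher (32.9% of all genes) and 6 lower (38.3%). Since most genes differed between the oocyte and the somatic cells, the number called says little, and the size of the difference says more. The median of the 9 annexins was -2.50, that is, 2.50 lower in the oocyte, against -0.52 over all genes. With ANXA1 and ANXA8 set at their bounds in place of their measured values the median was -2.19. The same 8 genes were called without oocyte replicate 2, with differences of -4.82 for ANXA4 and 1.18 for ANXA7.

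The last comparison asked what 4 h of IVM did to the annexins of CC. The maturation marker HAS2, which makes the hyaluronan of the expanding cumulus, had a mean of 2.20 after IVM and -5.56 before, when 2 of 4 arrays were above background. ANXA1, ANXA2, and ANXA3 were higher after IVM and no annexin was called lower, so that 3 of 9 were called where 45.8% of all genes were, 30.3% higher and 15.5% lower. ANXA1 rose to 1.99, 1.03, 0.75, and 0.28 from -2.09, -2.10, -0.17, and -0.92, a difference of 2.33 ± 0.49 (SE, n = 4 each, limma adjusted p = 0.00562) or 5.03-fold. ANXA2 rose to 4.29, 5.68, 4.59, and 4.71 from 3.09, 3.05, 3.41, and 3.61, a difference of 1.53 ± 0.30 (limma adjusted p = 0.00410) or 2.88-fold. ANXA3 rose to -1.17, 0.57, -0.91, and -1.15 from -2.32, -2.30, -1.41, and -2.17, a difference of 1.38 ± 0.40 (limma adjusted p = 0.0226) or 2.61-fold. In all 3 genes the groups did not overlap, as in 44% of all genes, and IVM replicate 2 was the highest for ANXA2 and ANXA3.

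Without IVM replicate 2 the differences were 2.32, 1.24, and 0.97, each still called, and without CC replicate 1 ANXA3 was not (1.29, adjusted p = 0.0617). The median difference of all genes in this comparison was 0.37, and relative to it ANXA1, ANXA2, and ANXA3 stood 1.96, 1.16, and 1.02 higher. Markers of other cells moved as well. The mean of the leukocyte and blood list was -5.70 to -4.41 in CC and -4.78 to -3.50 after IVM, with CD68 and CD14 higher by 2.15 and 2.33 (limma adjusted p = 0.00188 and 0.0430), while PTPRC was not above background on any array of either group. IVM replicate 2 was also the highest in the theca list (0.04, with the others at -1.33 to -1.21) and in the endothelial list (-4.83, with the others at -6.14 to -5.72), and the part of such cells in the result was not tested. As all arrays after IVM were on a slide of their own, the slide and the maturation cannot be told apart.

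The other annexins of CC did not pass the test after IVM. ANXA11 stood at -0.36, 0.09, -0.11, and 0.00 after IVM, below every CC array, with a difference of -0.47 ± 0.18 (limma adjusted p = 0.0545). Its first probe sequence was called lower on 3 of 3 spots and its second on 0 of 3, where 45.6% of all spots were called in either direction. ANXA4 differed by -0.69 ± 0.28 (limma adjusted p = 0.0706) and ANXA6 by -0.60 ± 0.27 (limma adjusted p = 0.0946), with overlapping groups. Which of these were called depended on the processing. Quantile normalization and the fit of all 20 arrays added ANXA4 and ANXA11 as lower, centring on the array median added none, and the deposited table, which differs in background, signal, and centring, added ANXA4, ANXA5, ANXA6, and ANXA11 as lower. ANXA5 changed from 0.03 ± 0.21 to -0.40 with that table (limma adjusted p = 0.911 and 0.0393). ANXA7 was at -0.01 ± 0.25 and ANXA8 at -0.04 ± 0.52 (limma adjusted p = 0.984 and 0.958), and ANXA8 became 0.51 higher with normexp background correction (limma adjusted p = 0.0352).

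Genes whose products bind annexins were followed from a list of 18, of which 15 were found on the array by name. S100A10, the light chain of the ANXA2 complex, was near ANXA2 in having its lowest values in the oocyte. The TH mean was 2.99 ± 0.36 (SD, n = 4), GC had 2.26 ± 0.87, CC had 2.59 ± 0.23, and oocytes had -1.77 ± 0.12. The somatic groups overlapped and none of their differences was called, and the oocyte was below their mean by 4.38 (-4.38 ± 0.27, limma adjusted p = 5.31e-10), against -2.19 ± 0.28 for ANXA2 itself (limma adjusted p = 3.51e-06). After IVM, S100A10 was -0.47 ± 0.28 from CC (limma adjusted p = 0.188) while ANXA2 rose. AHNAK, a giant scaffold that binds the ANXA2 and S100A10 complex, was highest in TH at -1.65 ± 0.19, and exceeded GC by 2.92 ± 0.43 and CC by 4.39 ± 0.43 (limma adjusted p = 0.000110 and 1.18e-06).

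The plasminogen system, which ANXA2 gathers at the cell surface, was spread over the follicle. PLAUR, the urokinase receptor, rose in CC after IVM from a mean of -0.98 ± 1.16 (SD, n = 4) to 3.93 ± 1.10, a 30.1-fold difference with no overlap (limma adjusted p = 0.000387). PLAT, the tissue plasminogen activator, rose 5.11-fold, from 2.50 ± 0.56 to 4.85 ± 1.05 (limma adjusted p = 0.00542). PLAU, the urokinase, was 0.02 ± 0.27 apart (limma adjusted p = 0.950). PLG mRNA, the precursor of plasmin, was at 0.04 ± 0.15 in oocytes, at least 33.6-fold higher than in GC, where it was not well above background on any array. The measured difference had a limma adjusted p of 3.20e-10, which does not test this bound.

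**Figure D4:**
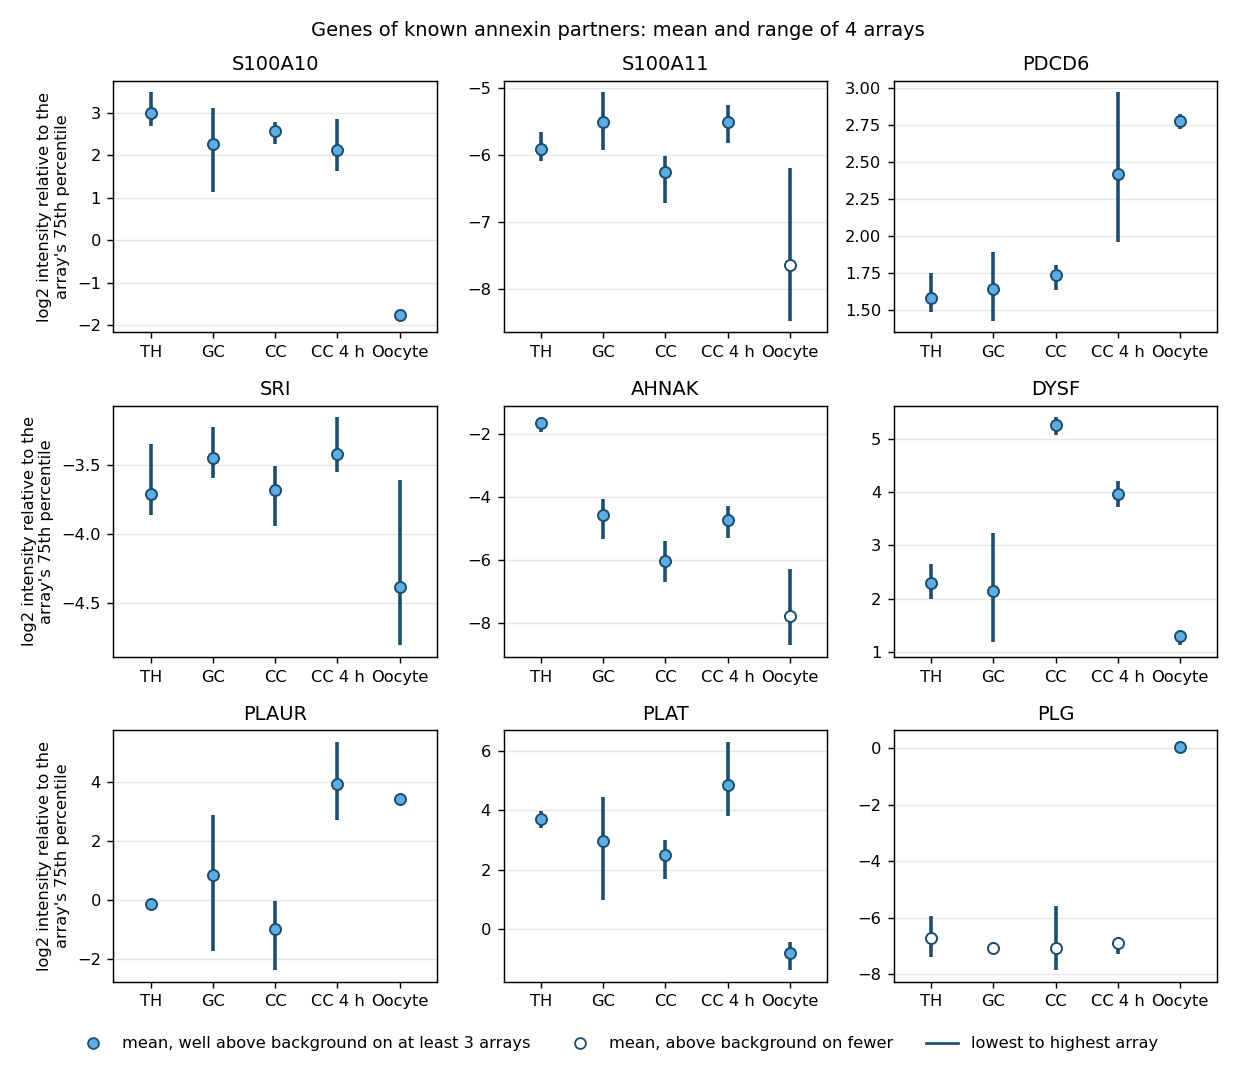
Mean (symbols) and range (lines) over 4 arrays of 9 genes of annexin partners, as log2 intensity relative to the 75th percentile of the array (vertical axis), by group, where CC 4 h stands for CC after IVM. Open symbols mark groups in which fewer than 3 arrays were well above background. PLAUR and PLAT are higher after IVM than in CC, PDCD6 and PLG are highest in oocytes, and S100A10 is lowest there.

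The calcium sensors of the penta-EF-hand family, partners of ANXA7 and ANXA11, parted from each other. PDCD6, which binds ANXA11 and ANXA7, was highest in the oocyte, like both of them, at 2.77 ± 0.05 (SD, n = 4) with TH at 1.58 ± 0.12, GC at 1.65 ± 0.19, and CC at 1.74 ± 0.07. It exceeded the somatic mean by 1.12 ± 0.11 (limma adjusted p = 1.24e-07) with no overlap, and it was 0.68 ± 0.23 higher in CC after IVM (limma adjusted p = 0.0357). PEF1, its heterodimer partner, was lower in the oocyte by 3.32 (-3.32 ± 0.15, limma adjusted p = 1.10e-11), and SRI (sorcin), a ligand of ANXA7, by 0.77 (-0.77 ± 0.19, limma adjusted p = 0.00169). RASA1, the Ras inhibitor bound by ANXA6, was 3.13 ± 0.11 higher in the oocyte (limma adjusted p = 5.25e-13), where ANXA6 was lowest.

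Other partners set CC apart. DYSF (dysferlin), which works with ANXA1 and ANXA2 in membrane repair, was highest in CC at 5.28 ± 0.16 (SD, n = 4), against 2.14 ± 0.84 in GC and 2.30 ± 0.29 in TH. GC was below CC by 3.14 (-3.14 ± 0.31, limma adjusted p = 1.98e-05), and after IVM the level fell by 1.30, as -1.30 ± 0.19 (limma adjusted p = 0.000775). PLA2G4A, the cytosolic phospholipase A2 restrained by ANXA1, fell after IVM by 1.49 (-1.49 ± 0.23, limma adjusted p = 0.00105), where ANXA1 rose. S100A11, the partner of ANXA1, was dim, at -6.25 ± 0.31 in CC and -5.50 ± 0.26 after IVM, a difference of 0.75 ± 0.23 (limma adjusted p = 0.0249). Its values ranged over -6.71 to -6.01 in CC and -5.81 to -5.25 after IVM. The lowest signal of any probe well above background was -5.73 to -5.26 on CC arrays and -5.12 to -4.59 after IVM. The difference is thus one between values near background, and a rise of its mRNA cannot be read from it.

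Over the 15 partner genes, 14 were called between the oocyte and the somatic mean, 4 higher (PDCD6, PLAUR, PLG, and RASA1) and 10 lower, with a median of -1.74. Between TH and GC 5 were called, all higher in TH (AHNAK, CD63, PEF1, PLAU, and RASA1), between TH and CC 3 higher and 1 lower, and between GC and CC 2 each way. After IVM, 6 were called higher (AHNAK, CD63, PDCD6, PLAT, PLAUR, and S100A11) and 3 lower (DYSF, PLA2G4A, and S100A4), with a median of 0.19 against 0.37 over all genes. The call of S100A11 rested on values near background. The share of all genes called in each comparison is the one given above for the annexins.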

How the data were processed

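Gene expression was measured on 20 arrays in 5 groups of 4, taken from the titles in the labels. For each array the authors deposited scanner output of Agilent Feature Extraction 10.7.3.1, with probes annotated on UMD 3.1, which holds intensity per spot, namely mean, median, and local background signals and a processed signal from which the background has been taken off, without scaling between arrays. They also deposited a table of log2 values, which equalled log2 of the median intensity minus the median of the array within 5e-09, so its background was not subtracted.

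Log2 processed signals were centred on the 75th percentile of their array, and a gene was summarised by the median of its spots. Spots marked as outliers (at most 23 an array) were left out, and 0 spots were saturated. Of the 61325 probes 9779 had no gene name, and 734 of these were named by accession through the RefSeq table (assembly ARS-UCD2.0, of which no coordinate was used). The members, the partner and marker lists, and the tests were chosen with earlier results of these data known. Differences were fitted with limma 3.58.1 (R 4.3.3) over 22550 genes, on the 16 arrays of the 4 cell types and separately on the 8 CC arrays before and after IVM. Tables were joined in Python 3.11.15 with pandas 2.3.3, and figures drawn with matplotlib 3.10.9. The text names all 9 annexins, the partners S100A10, S100A11, PDCD6, and SRI, other partners that passed a test, and the 2 genes most correlated with an annexin. ANXA9, ANXA10, and ANXA13 were named outside this rule, and S100A6, FPR1, and FPR2 of the partner list were not found by name. Groups with fewer than 3 arrays above background were given bounds.

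The number of arrays limits the precision. The fits were tested on simulated data. Replicate numbers were not taken as pairs. The deviations of same-numbered arrays correlated from -0.26 to 0.44, above 0.1 in 16 of 40 pairs, which does not exclude a pairing. Same-numbered arrays of TH, GC, CC, and oocytes also shared a slide, so pairing and slide cannot be told apart by these values. Alternatives changed the scaling (quantile normalization, centring on the array median or on detected probes), the background (normexp, offset 50), the source (the deposited table), the summary over probes, the filter on dim signals, and the model (1 fit over all 20 arrays, replicate and slide blocks, fits within a slide, eBayes with trend and robust, the methods' analysis of variance, and each replicate left out). The slide as a random block and the averaging of spots of 1 sequence were added after the data were seen.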

Additional observations from a re-analysis of the deposited data

Results flagged for a closer look

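Of the 45 sets of 4 arrays (9 annexins in 5 groups), 3 had 1 array that stood apart from the other 3 by Dixon's criterion on the gap over the range, which chance gives in about 1 of 20 sets. ANXA3 in CC after IVM was 0.57 on replicate 2 and -1.17 to -0.91 on the others. ANXA5 in oocytes was 0.61 on replicate 1 and 0.96 to 1.03 on the others. ANXA11 in GC was 0.65 on replicate 3 and 0.44 to 0.48 on the others.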

How the results depend on the processing

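The number of annexins called stayed within 1.5 times of the value given for TH against CC (4 to 6), the F-test (7 to 9), and the oocyte against TH (6 to 9), GC (6 to 9), CC (8 to 9), and the somatic mean (6 to 9), under all alternatives run. For TH against GC it fell from 6 to 3 within slide 1 and 1 within slide 2, and for GC against CC from 2 to 0 and 1, as fits of 2 arrays against 2, and to 1 with the array median. For CC after IVM against CC it rose from 3 to 5 with quantile normalization (3 higher and 2 lower), with the percentile over detected probes, and with all 20 arrays in 1 fit, and to 7 with normexp (4 higher and 3 lower) and the deposited table (3 higher and 4 lower). In the same comparison ANXA5 reversed to -0.40 with the deposited table and ANXA8 to 0.51 with normexp. The slide as a random block gave 6 (correlation -0.261). No slide held arrays of both groups, so this block cannot separate the slide from the maturation, and nothing is read from the added calls. Leaving out 1 replicate gave 4 to 6 calls for TH against GC, 5 to 5 for TH against CC, 1 to 3 for GC against CC, 9 to 9 for the oocyte against TH and for the F-test, 8 to 8 against GC and the somatic mean, 8 to 9 against CC, and 2 to 4 after IVM, where ANXA3 was not called without CC replicate 1 (adjusted p = 0.0617). With the replicate number as a block, 6, 5, and 3 annexins were called for TH against GC, TH against CC, and GC against CC, the added one being ANXA1 (adjusted p = 0.0392), and 3 after IVM. An array correlated best with its own number in 16 of 40 tests, each among 4 arrays. Of 2430 comparisons of single annexins with an alternative, 2315 stayed on their side of the threshold (37 of them uncalled differences whose sign turned), 69 lost and 44 gained the call, and 2 reversed. ANXA6 between TH and GC, ANXA2 between GC and CC, and ANXA7 between TH and GC lost it most often, in 18, 14, and 9 of 31 alternatives. ANXA1 and ANXA8 were mostly not above background in oocytes, so the size of their differences there was not measured. The methods' analysis of variance over the 4 cell types called 9 annexins on log2 values and 8 on linear values.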

Other observations

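ANXA9, ANXA10, and ANXA13 were also on the array and dim. ANXA9 was above background on all 4 arrays of TH, GC, and CC and lower in TH than in CC, by 1.11 (-1.11 ± 0.21, limma adjusted p = 0.000762). ANXA10 was above background on 3 of 4 oocyte arrays and on 0 arrays of the other groups, and ANXA13 on 4 TH and 3 oocyte arrays. The ANXA13 means in TH and oocytes were -6.26 and -7.56, so these levels are near background.

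The genes most like the other annexins over the 20 arrays were KCNE4 and CAST for ANXA2 (r = 0.96 and 0.95), HSD3B7 and PRAF2 for ANXA4 (0.99 each), BSG and MAGED2 for ANXA6 (0.96 each), TMIGD1 and SENP5 for ANXA7 (0.94 each), OLR1 and RECS1 for ANXA8 (0.93 and 0.89), and LATS2 and TCEANC for ANXA11 (0.98 and 0.97). Among the annexins themselves, r was highest for ANXA1 and ANXA5 (0.94) and lowest for ANXA5 and ANXA7 (-0.91). These values follow the differences between the 5 groups and are given without a test.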
